A study of Mus musculus with 8 samples.

Results

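The genes described here are 58 genes of mitosis, chosen by gene symbol as known parts of the machinery that condenses, attaches and separates chromosomes and divides the cell. Of the 58, 56 had a row among the 18438 genes of the deposited table, and all 56 met the threshold for testing, 10 or more in 2 or more of the 8 libraries. Incenp and Kif20a are not analysed here. Polyadenylated RNA was sequenced from splenic T cells of C57BL/6 mice, 7 days into EAE (experimental autoimmune encephalomyelitis) in which immunization against the myelin antigen MOG serves to model multiple sclerosis. The mice were wild type (WT) or carried IRE1a-/- (KO), the loss of IRE1a, a sensor of protein folding stress in the endoplasmic reticulum that is encoded by Ern1. The gate for regulatory T cells (Treg) was CD4+CD25hiYFP+ and that for effector T cells (Teff) was CD4+CD25-YFP-, which gives 4 groups of 2 libraries, and all 4 come from mice with EAE. The labels do not say what drives YFP, which part of Ern1 was removed, in which cells it was removed, or whether replicate libraries stand for different mice. The p-values therefore reflect the scatter of these 8 libraries alone, part or all of which could be technical.

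Mitosis genes are transcribed late in the cell cycle and are nearly silent in resting cells. In cycling cells the MuvB complex recruits first MYBL2 and then FOXM1 to their promoters, and in resting cells the same core, as part of the DREAM complex, holds them off. MuvB binds a short element called the CHR, often placed near the transcription start and paired with CCAAT boxes bound by NF-Y. T cells leave rest and divide after antigen contact, so these transcripts are widely read as markers of dividing T cells.

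RefSeq promoters of build GRCm38.p6, from 250 bases before to 50 bases after the start, were matched by symbol for 49 of the 56 genes. The CHR was searched as TTTGAA or TTCGAA and the CCAAT box as CCAAT, each on both strands. TTCGAA is its own reverse complement, and a CHR and a CCAAT match may share an end base, in which case each was counted. A CHR occurred in 36 of the 49 promoters (73.5%), in 17.4% of the 10232 tested genes with a promoter and in 19.2% of all 32851 promoters of that length. Within 50 bases on either side of the start it occurred in 33 of the 49 (67.3%) and in 4.63% of the tested genes. CCAAT occurred in 67.3% of the mitosis promoters, 43.1% of tested genes and 37.4% of all promoters, and both motifs together in 59.2%, 7.26% and 7.52%. Since the genes are chosen for a shared role, these shares describe them, and a match is not a measured binding site. The sequences of 4 genes are printed because these had the smallest p-values for KO against WT in Teff among promoters with a CHR. The last 150 bases before the start are given 5′ to 3′ in the gene's direction, with CHR and CCAAT matches of either strand in capitals, from chr7:135716380-135716529, chr11:99024190-99024339, chr9:70421555-70421704 and chr1:189688087-189688236, all on the minus strand.
Mki67: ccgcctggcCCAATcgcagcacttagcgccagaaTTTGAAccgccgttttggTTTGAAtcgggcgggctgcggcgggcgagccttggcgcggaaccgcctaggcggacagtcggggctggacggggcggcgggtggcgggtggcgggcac
Top2a: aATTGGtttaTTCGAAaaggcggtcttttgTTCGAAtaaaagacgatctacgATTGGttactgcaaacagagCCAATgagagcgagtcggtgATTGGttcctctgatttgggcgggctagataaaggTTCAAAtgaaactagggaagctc
Ccnb2: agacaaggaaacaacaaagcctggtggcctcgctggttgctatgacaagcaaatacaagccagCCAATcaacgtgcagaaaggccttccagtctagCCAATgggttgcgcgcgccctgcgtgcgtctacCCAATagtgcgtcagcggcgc
Cenpf: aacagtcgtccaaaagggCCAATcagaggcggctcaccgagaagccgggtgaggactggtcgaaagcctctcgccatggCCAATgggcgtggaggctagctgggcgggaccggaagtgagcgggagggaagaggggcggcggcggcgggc
In Ccnb2 and Cenpf the CHR closest to the start lies just after it, so the 30 bases around it are shown as well, from chr9:70421533-70421562 and chr1:189688067-189688096, again on the minus strand.
Ccnb2 start: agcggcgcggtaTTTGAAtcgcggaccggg
Cenpf start: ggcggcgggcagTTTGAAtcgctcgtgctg
The first base of the CHR is base 5 of the Ccnb2 transcript and base 3 of the Cenpf transcript. In Mki67 the CHR elements begin 116 and 98 bases before the start, and in Top2a the closest begins 23 bases before it. A CHR was found in 13 of the 18 matched genes called lower in KO Teff and in 23 of the 31 matched genes not called there, so the motif did not separate the called genes from the rest.

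**Figure D1:**
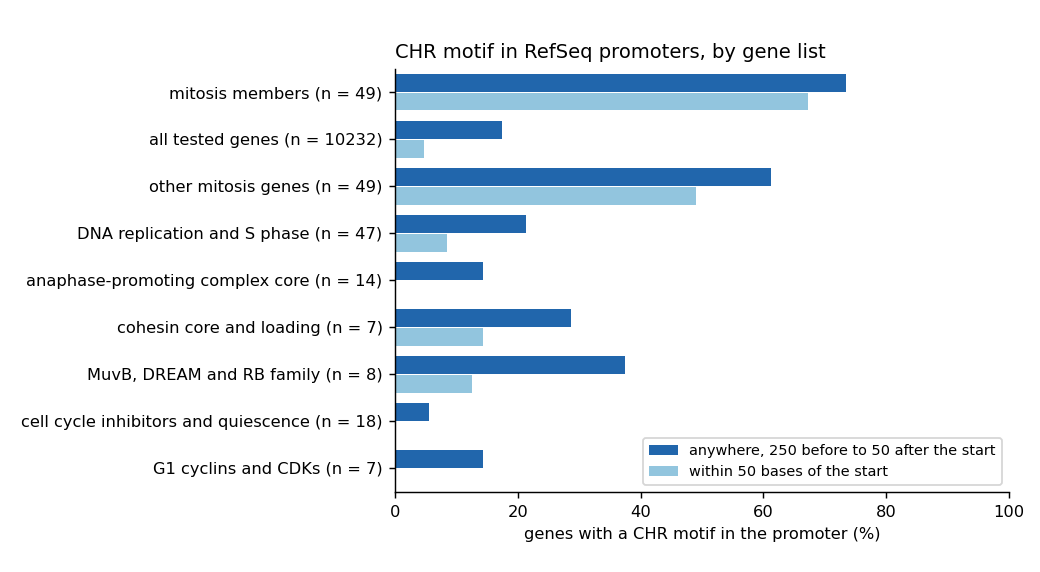
Share of genes whose promoter holds a CHR motif (TTTGAA or TTCGAA, either strand), in percent, for the mitosis genes, for all tested genes and for 7 other cell cycle lists; dark bars count the whole window from 250 bases before to 50 after the start, light bars only the 50 bases on either side of the start. The mitosis genes stand at 73.5% and 67.3% and the other mitosis genes at 61.2% and 49%, against 17.4% and 4.63% of all tested genes.

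The libraries had summed normalized values of 17504097 to 18751258 and 16324 to 16642 genes above 0. Such sums do not measure depth, since the values were already normalized. Divided by each library's step, the spacing of its low values, the sums gave estimates of 17788716 to 18602439 reads. Replicates of a group correlated at 0.977 to 0.982 (Pearson's r across 10393 genes, which are not independent replicates). Ern1, the targeted gene, was at 377 and 399 in the WT Treg libraries and 326 and 359 in the KO Treg libraries, and at 559 and 616 in the WT Teff libraries and 458 and 453 in the KO Teff libraries. KO was lower without overlap in both sorts but passed the test in neither (adjusted p = 0.489 in Treg and 0.0902 in Teff, limma), and a total over the whole gene does not check the loss of part of it. Foxp3, a Treg marker that the gates do not name, was at 89.1 to 117 in the Treg libraries and at 0 to 8.29 in the Teff libraries. Il2ra, which encodes the CD25 of the gates, was at 8699 to 9012 and 436 to 690.3 in the same order.

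In effector T cells, many mitosis genes were lower in KO than in WT. Of the 56 genes, 21 passed the test as lower (limma on log2(value + 1), Benjamini-Hochberg adjusted p below 0.05 over all 13358 tested genes) and 0 as higher, where 5.08% of all tested genes were called lower and 1.84% higher. At an unadjusted p below 0.05 there were 37 lower genes and 0 higher, where 13.7% of all tested genes were lower and 7.85% higher. The authors' deposited table calls 0 of the 56 higher, and 327 of all 12818 genes with an adjusted p there. The median log2 fold change was -0.88, against -0.02 over all tested genes, and 54 of 56 genes lay below 0, against 52.7% of all. In 44 of 56 genes both KO libraries lay below both WT libraries, where 27.4% of all genes did so, and in 0 both lay above, where 22.4% did. In bulk RNA, fewer dividing cells and less of these transcripts per dividing cell cannot be told apart. Summed over the genes, Smc4 left out because it alone outweighs many others, the normalized values were 15602 and 14519 in the WT Teff libraries and 8957 and 8570 in the KO Teff libraries. The same sum was 15491 and 15321 in WT Treg and 12633 and 12969 in KO Treg. The number of calls rests on few libraries, over all genes too. Leaving out any 1 library lowered it both for these genes and over all tested genes. The median log2 fold change of the 56 genes then ran from -1.04 to -0.88. A fit on the 4 Teff libraries alone called 123 of all 13358 tested genes lower, against 678 in the main fit. Of the 21 calls, 2 (Mki67 and Top2a) held under all 18 alternatives tried, and a fit on the 4 Teff libraries alone called 5.

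**Figure D2:**
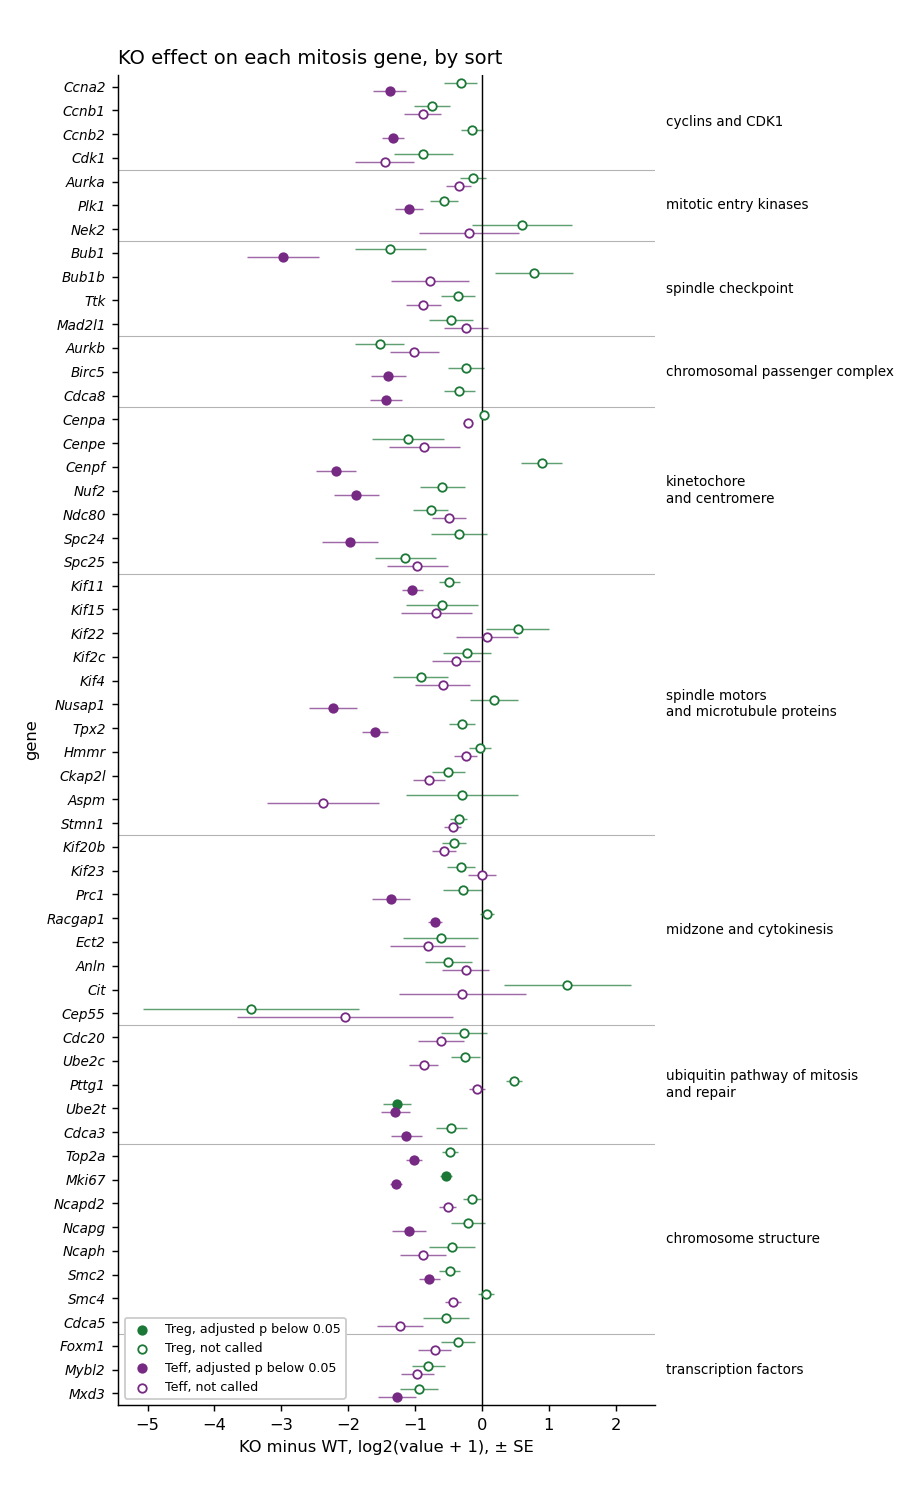
KO minus WT on the log2(value + 1) scale, with the standard error, for each of the 56 mitosis genes in Treg (green) and Teff (purple), grouped by role; filled points passed limma's test at an adjusted p below 0.05. In Teff 54 points lie below 0 and 21 are filled; in Treg 46 lie below 0 and 2 are filled.

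The cyclins and their kinase drive entry into mitosis. In Teff 2 of these 4 genes were called lower, where 5.08% of all tested genes were. All 4 lay below 0, with a median log2 fold change of -1.35. Ccnb2, a B-type cyclin that activates CDK1, was at 182 and 162 in the WT Teff libraries and 70.1 and 65.9 in the KO Teff libraries. Every KO value lay under every WT value, and the fall passed the test (log2 fold change -1.32, SE 0.16, adjusted p = 0.00622). Ccna2, the A-type cyclin of S phase and mitotic entry, stood at 113 and 84.2 in KO against 263 and 248 in WT (log2 fold change -1.38, SE 0.25, adjusted p = 0.0216). Cdk1, the kinase itself, was at 48.1 and 33.3 in KO against 113 and 110.1 in WT, without overlap, and the difference did not pass (log2 fold change -1.45, SE 0.44, adjusted p = 0.108), and its KO Treg libraries, at 33.1 and 90.6, stood apart from each other. Ccnb1, the other B-type cyclin, had the smallest difference of the 4 at -0.89 (adjusted p = 0.113). In Treg Ccnb2 was at 168 and 147 in KO against 165 and 185 in WT and Ccna2 at 179 and 204 in KO against 189 and 299.7 in WT, with overlapping groups for both. Of the 4 genes 0 were called in Treg (range -0.87 to -0.15), where 0.779% of all tested genes were called lower.

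Of the kinases of mitotic entry, 1 of 3 was called lower in Teff, where 5.08% of all tested genes were, and all 3 lay below 0. Plk1, which drives centrosome maturation and spindle assembly, was at 148 and 193 in the WT Teff libraries and 79.7 and 78.6 in the KO Teff libraries. Its groups did not overlap and it was called (log2 fold change -1.09, SE 0.20, adjusted p = 0.0249). Aurka, the centrosome kinase that TPX2 activates, was at 70.7 and 71.3 in KO against 90 and 91.2 in WT, without overlap and not called (log2 fold change -0.35, SE 0.19, adjusted p = 0.353). Nek2, a centrosome kinase, differed more between replicates than between genotypes, at 55 and 14.3 in KO against 55.7 and 18.6 in WT (log2 fold change -0.19, SE 0.74, adjusted p = 0.916). In Treg Plk1 was at 99.7 and 77.8 in KO against 128 and 134 in WT, again without overlap, and was not called (log2 fold change -0.57, SE 0.20, adjusted p = 0.261).

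The spindle checkpoint holds anaphase until every chromosome is attached. Bub1, one of its kinases, had the lowest log2 fold change of all 56 genes in Teff, at 106 and 139 in the WT Teff libraries and 20.9 and 10 in the KO Teff libraries (log2 fold change -2.98, SE 0.53, adjusted p = 0.0216). Ttk, the kinase also known as MPS1, was at 18.9 and 21.1 in KO against 35.1 and 39.9 in WT and did not pass (log2 fold change -0.88, SE 0.26, adjusted p = 0.0986). Bub1b, which encodes BUBR1, was at 95.6 and 37.4 in KO against 147 and 72.1 in WT, so that 1 KO library exceeded 1 WT library (log2 fold change -0.77, SE 0.59, adjusted p = 0.507). Mad2l1, the checkpoint protein MAD2, had the smallest difference at -0.24 (adjusted p = 0.731). In Treg Bub1 was at 21.2 and 58.9 in KO against 113 and 76.5 in WT and Bub1b at 216 and 339.5 in KO against 103 and 238 in WT. These log2 fold changes, -1.37 and 0.78, had opposite signs and neither passed (adjusted p = 0.302 and 0.606).

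The chromosomal passenger complex corrects wrong attachments and later directs division. In Teff 2 of its 3 measured genes were called lower, where 5.08% of all tested genes were, and all 3 lay below 0. Cdca8, which encodes borealin, was at 162 and 149 in the WT Teff libraries and 70.04 and 46.2 in the KO Teff libraries (log2 fold change -1.43, SE 0.23, adjusted p = 0.0156). Birc5, which encodes survivin, was at 53.7 and 82.4 in KO against 214 and 147 in WT (log2 fold change -1.40, SE 0.26, adjusted p = 0.0253). In both genes the 2 genotypes did not overlap. Aurkb, the kinase of the complex, was at 47.6 and 23.5 in KO against 64.3 and 72.9 in WT and had the smallest difference of the 3 (log2 fold change -1.01, SE 0.36, adjusted p = 0.164). In Treg it had the largest, at 128 and 156 in the WT Treg libraries and 39.5 and 59 in the KO Treg libraries, and still did not pass here (log2 fold change -1.53, SE 0.36, adjusted p = 0.108). The authors' deposited table calls Aurkb lower in KO Treg.

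Kinetochore genes build the attachment site of the spindle on the centromere. In Teff 3 of 7 were called lower, where 5.08% of all tested genes were, and all 7 lay below 0. Cenpf, a large outer kinetochore protein, was at 139 and 106 in the WT Teff libraries and 25.9 and 26 in the KO Teff libraries (log2 fold change -2.18, SE 0.30, adjusted p = 0.00952). Nuf2 and Spc24 belong to the NDC80 complex, which grips the microtubule. Nuf2 was at 24 and 21.2 in KO against 75.9 and 96.5 in WT (log2 fold change -1.88, SE 0.34, adjusted p = 0.0215). Spc24 was at 17 and 27.3 in KO against 96.2 and 79.7 in WT (log2 fold change -1.97, SE 0.41, adjusted p = 0.0347). None of these 3 overlapped between genotypes. The other subunits of the same complex, Ndc80 and Spc25, were at -0.49 and -0.96 on the log2 scale and were not called (adjusted p = 0.332 and 0.274). Cenpa, the centromeric histone, had the smallest difference, at 1067 and 1078 in KO against 1251 and 1238 in WT, with close replicates and no overlap (log2 fold change -0.21, SE 0.06, adjusted p = 0.0949). In Treg 0 of the 7 were called, where 0.779% of all tested genes were called lower. Of the 7, 5 lay below 0 and the median was -0.59. Spc25 was at 23.7 and 35.9 in KO against 62.6 and 69 in WT (log2 fold change -1.14, adjusted p = 0.307), and Ndc80 at 78.7 and 56 in KO against 104 and 124 in WT (-0.76, adjusted p = 0.236). Cenpe, a motor of the kinetochore, was at 73.1 and 91.4 in KO against 256 and 123 in WT (-1.11, adjusted p = 0.409). KO lay below WT without overlap for these 3, where 25.9% of all tested genes did so in Treg. Cenpf lay on the other side of 0, at 131 and 170.4 in the WT Treg libraries and 208 and 372 in the KO Treg libraries. Both KO Treg values lay above both WT values, but the KO values differed widely from each other and the test was not passed (log2 fold change 0.89, SE 0.30, adjusted p = 0.234).

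Among the 11 spindle motors and microtubule proteins, 3 were called lower in Teff, where 5.08% of all tested genes were, and 10 lay below 0. Tpx2, which activates Aurora A and nucleates spindle microtubules, was at 239 and 177 in the WT Teff libraries and 74.3 and 61 in the KO Teff libraries (log2 fold change -1.60, SE 0.19, adjusted p = 0.00581). Kif11, the Eg5 motor that pushes spindle poles apart, was at 137 and 162 in KO against 334 and 281 in WT (log2 fold change -1.04, SE 0.16, adjusted p = 0.0118). Nusap1, a protein that bundles spindle microtubules, was at 36.4 and 49.6 in KO against 218 and 189.8 in WT (log2 fold change -2.23, SE 0.36, adjusted p = 0.0151). All 3 separated the genotypes. Kif22, a motor that moves chromosome arms, had the largest difference toward KO of the 11, at 179.9 and 278 in KO against 243 and 186 in WT, with overlapping groups (log2 fold change 0.08). Aspm, a spindle pole protein, had a low log2 fold change of -2.38 but was not called (adjusted p = 0.153). Its replicates lay far apart, at 184 and 50.9 in WT Teff, 215 and 47.8 in WT Treg and 126 and 54 in KO Treg, against 20.6 and 15.4 in KO Teff. In Treg 0 of the 11 were called, where 0.779% of all tested genes were called lower, and the median was -0.30. Tpx2 was there at 199 and 181 in KO against 239.6 and 226 in WT, Kif11 at 216 and 245 in KO against 307 and 338 in WT and Nusap1 at 165 and 117 in KO against 176 and 85.2 in WT. The genotypes overlapped for Nusap1 and for no other of these 3, and the log2 fold changes were -0.29, -0.48 and 0.18.

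Midzone and cytokinesis genes act on the central spindle and the contractile ring. In Teff 2 of 8 were called lower, where 5.08% of all tested genes were, and 7 lay below 0. Racgap1, a subunit of centralspindlin, was at 663 and 673 in the WT Teff libraries and 388 and 431 in the KO Teff libraries. The change was small and the replicates close (log2 fold change -0.71, SE 0.10, adjusted p = 0.0112). Prc1, which bundles the central spindle, was at 176 and 119 in KO against 424 and 328 in WT (log2 fold change -1.36, SE 0.29, adjusted p = 0.0348). Kif20b, a motor of late cytokinesis, was at 167 and 198 in KO against 306 and 239 in WT, without overlap and not called (log2 fold change -0.57, SE 0.18, adjusted p = 0.116). Kif23, the motor subunit of centralspindlin, was not called, at 251 and 247 in KO against 285 and 217 in WT with overlapping genotypes (log2 fold change 0.00, adjusted p = 1.00). Cep55, an abscission protein, was listed at 0 in 3 of 4 Teff libraries and at 16.1 in the second WT Teff library. Its Treg values were 15.7 and 0 in KO against 55.9 and 34.3 in WT, and it was called in neither sort (adjusted p = 0.395 in Treg and 0.525 in Teff). In Treg Racgap1 was at 542 and 615 in KO against 535 and 564 in WT. None of the 8 genes was called in Treg, where 0.779% of all tested genes were called lower. Cit, the citron kinase, had the highest Treg log2 fold change of the 56 genes, with KO above WT without overlap and not called (log2 fold change 1.278, adjusted p = 0.601), and its WT Teff libraries, at 65 and 582, stood far apart.

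In the ubiquitin group, Ube2t was called lower in both sorts. Ube2t encodes the E2 enzyme of the Fanconi anaemia DNA repair pathway. It was at 116 and 119 in the WT Teff libraries and 47.9 and 46.5 in the KO Teff libraries (log2 fold change -1.29, SE 0.21, adjusted p = 0.0157). In Treg it was at 90.5 and 74.2 in the WT Treg libraries and 36.2 and 31 in the KO Treg libraries (log2 fold change -1.26, SE 0.21, adjusted p = 0.0421). Cdca3, an adaptor that marks WEE1 for destruction, was called in Teff, at 87.1 and 59.7 in KO against 172 and 148 in WT (log2 fold change -1.13, SE 0.23, adjusted p = 0.0316). Ube2c, the E2 enzyme of the anaphase-promoting complex, was at 83.6 and 69 in KO against 161 and 121 in WT, without overlap and not called (log2 fold change -0.87, SE 0.22, adjusted p = 0.06). Pttg1, which encodes securin, the inhibitor of separase, had the smallest Teff difference of the 5, at 614 and 589 in KO against 659 and 607 in WT, with overlapping genotypes (log2 fold change -0.07, SE 0.12, adjusted p = 0.771). In Treg Pttg1 was higher in KO without overlap, at 664 and 598 in KO against 413 and 495 in WT, and did not pass (log2 fold change 0.48, SE 0.12, adjusted p = 0.117).

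**Figure D3:**
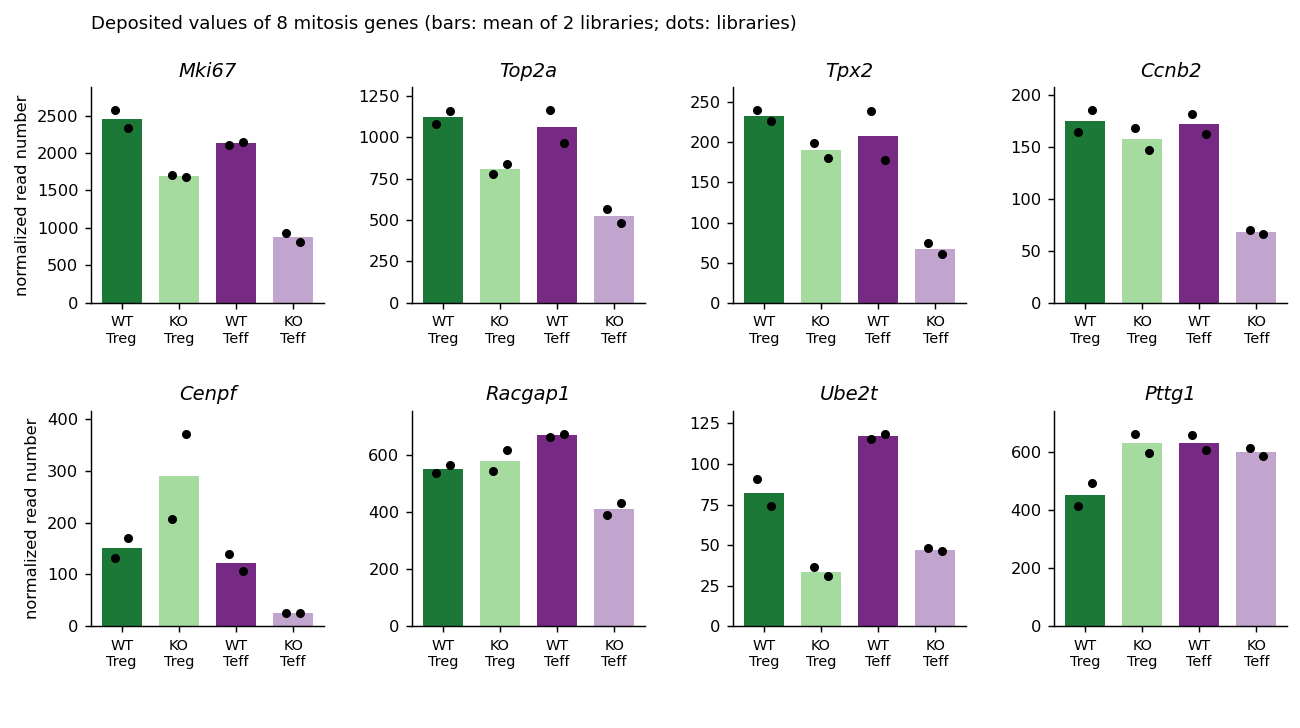
Deposited normalized read numbers of 8 mitosis genes on a linear axis from 0, by group; dots are the 2 libraries of a group and bars their mean. Mki67, Top2a and Ube2t are lower in KO in both sorts, Tpx2, Ccnb2 and Racgap1 separate the genotypes more in Teff, Cenpf is low in KO Teff and high in KO Treg, and Pttg1 overlaps in Teff.

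Genes of chromosome structure held the strongest calls, with 4 of 8 called lower in KO Teff, where 5.08% of all tested genes were. All 8 lay below 0. Mki67, which encodes Ki-67, the coat of mitotic chromosomes used to mark cycling cells, lies at chr7:135689784-135716361 on the minus strand (GENCODE M21, GRCm38) and had the smallest p of the 56. Its values were 2109 and 2149.9 in the WT Teff libraries and 939 and 809 in the KO Teff libraries (log2 fold change -1.29, SE 0.09, adjusted p = 0.000844). In Treg they were 1706 and 1677 in KO against 2568 and 2338 in WT, also without overlap (log2 fold change -0.53, SE 0.09, adjusted p = 0.0408). Top2a, at chr11:98992943-99024189 on the minus strand, encodes the topoisomerase that untangles sister chromatids. It was at 566 and 482 in KO against 1162 and 965 in WT in Teff (log2 fold change -1.02, SE 0.12, adjusted p = 0.0057). In Treg it was at 776 and 839 in KO against 1083 and 1162 in WT, without overlap and not called (log2 fold change -0.47, SE 0.12, adjusted p = 0.131). Smc2, a core subunit of condensin, was at 445 and 420.2 in KO against 654 and 856 in WT in Teff (log2 fold change -0.79, SE 0.16, adjusted p = 0.0296). Ncapg, a condensin subunit, was called as well (-1.09, adjusted p = 0.0457), while the condensin genes Ncapd2 and Ncaph were at -0.51 and -0.88 and were not. Smc4, the partner of Smc2, had the smallest difference of the 8, at 3659.5 and 4406 in KO against 6032 and 4876 in WT, without overlap (log2 fold change -0.43, SE 0.12, adjusted p = 0.0793).

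The 3 transcription factors were all below 0 in both sorts. Mxd3, a MYC-antagonist family protein expressed in S phase, was at 58.3 and 44.6 in the WT Teff libraries and 24.3 and 17.5 in the KO Teff libraries (log2 fold change -1.27, SE 0.29, adjusted p = 0.0434). Mybl2, the MYB protein that joins MuvB, was at 58.1 and 87.8 in KO against 143 and 137 in WT, without overlap and not called (log2 fold change -0.96, SE 0.24, adjusted p = 0.0623). Foxm1, which follows it on the same promoters, was at 165 and 163 in KO against 354 and 204 in WT (log2 fold change -0.71, SE 0.25, adjusted p = 0.158). Its KO values also lay under both WT values, which differed from each other by more than the gap. In Treg the log2 fold changes were -0.94 for Mxd3, -0.80 for Mybl2 and -0.35 for Foxm1. There 0 of 3 were called (adjusted p = 0.187, 0.184 and 0.583), where 0.779% of all tested genes were called lower.

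Across all roles in regulatory T cells, 2 of 56 genes were called lower in KO, Mki67 and Ube2t, and 0 were called higher. Of all tested genes, 0.779% were called lower and 0.674% higher. The median log2 fold change was -0.36, against -0.01 over all genes, and 46 of 56 genes lay below 0, against 51.7% of all. Both KO Treg libraries lay below both WT Treg libraries in 31 genes, where 25.9% of all genes did so, and above them in 4, where 22.8% did. An unadjusted p below 0.05 was reached by 15 genes below 0 and 2 above, where 8.18% of all tested genes were lower and 6.52% higher. The authors' deposited table calls 0 of the 56 higher, and 194 of all 13824 genes with an adjusted p there. Both calls were lost without any 1 of the Treg or WT Teff libraries, and 1 remained, Mki67, without either KO Teff library.

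**Figure D4:**
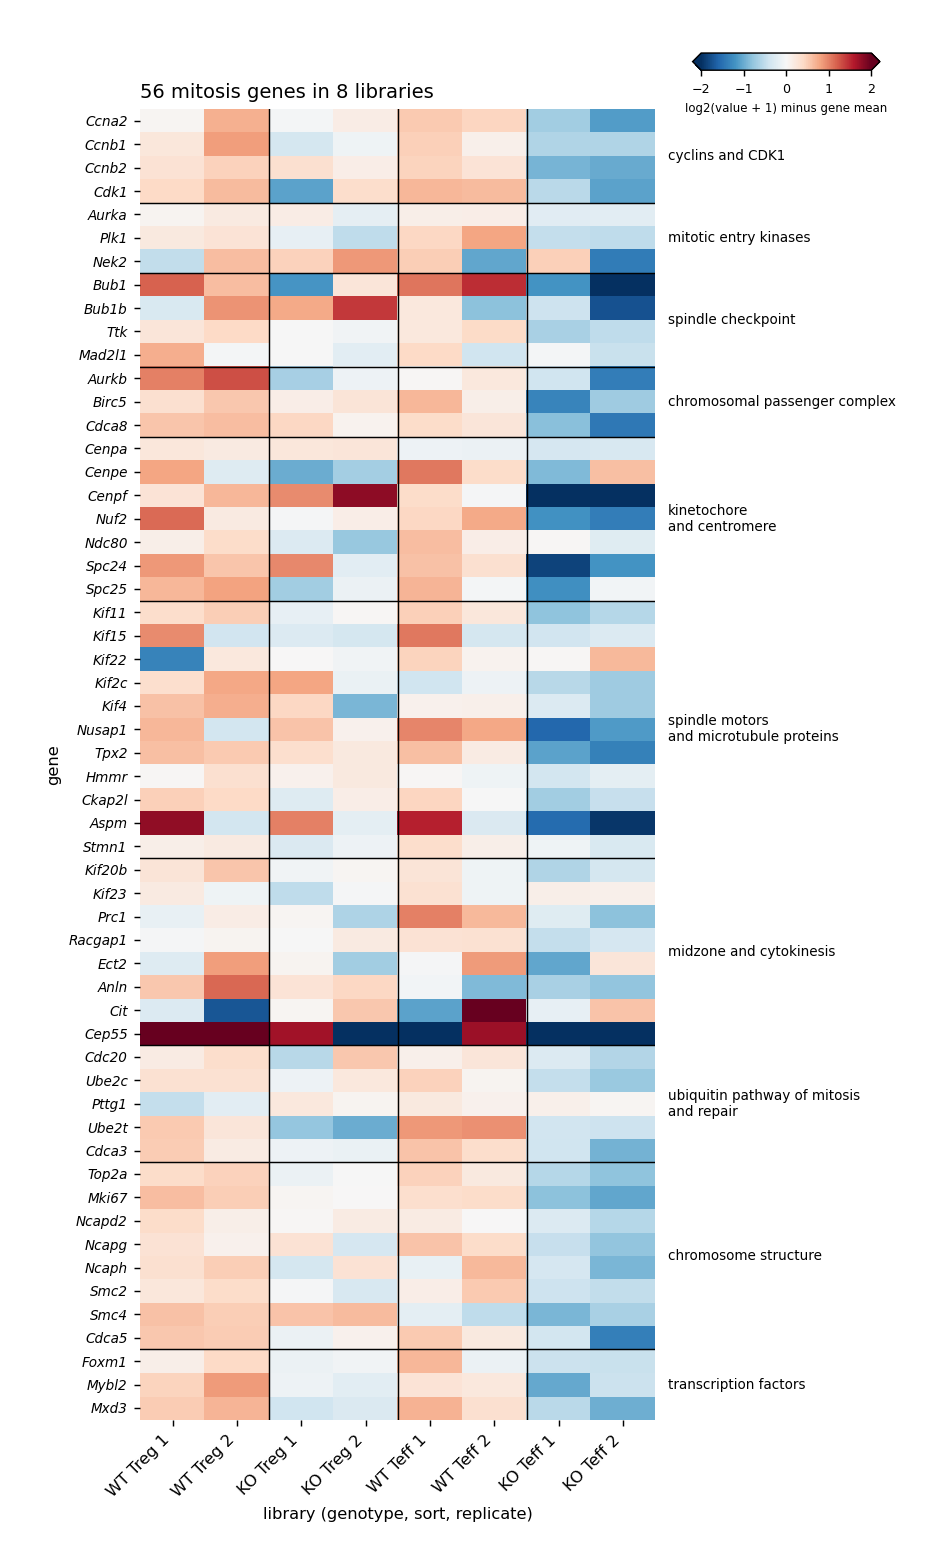
Each mitosis gene (row) in each library (column) as log2(value + 1) minus the gene's mean over the 8 libraries, in colour from 2 below (blue) to 2 above (red), grouped by role. The 2 KO Teff columns are blue for most genes, the KO Treg columns lie between them and the WT columns, and Cep55, Cit, Aspm, Nek2 and Bub1b differ within groups.

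The difference between the sorts in the KO effect was tested directly. No gene of the 56 passed (limma, adjusted p), where 0.0225% of all tested genes, 3 in all, were called higher and 0 lower. The effect in Treg minus that in Teff was above 0 in 47 of 56 genes, against 52.9% of all, with a median of 0.48, against 0.02. At an unadjusted p below 0.05 there were 18 genes, all with a smaller decrease or an increase in Treg, where 6.49% of all genes differed in that direction and 3.87% in the other. Cenpf had the largest difference (log2 fold change 3.08, SE 0.43, adjusted p = 0.0825, as the Treg effect minus the Teff effect). Nusap1 followed among genes with a small p at 2.41 (adjusted p = 0.165), and Mki67 stood at 0.75 (adjusted p = 0.124). The test thus established a smaller KO effect in Treg for none of the 56 genes taken singly.

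In WT mice few of these genes passed the test between the 2 sorts. Treg exceeded Teff for 3 genes and lay below for 1, where 13.5% of all tested genes were called higher and 11.6% lower, and the median log2 difference was 0.07. Smc4 was at 10360.3 and 9752 in WT Treg and 6032 and 4876 in WT Teff (log2 difference 0.89, adjusted p = 0.00161). Cenpa was at 1576 and 1521 against 1251 and 1238 (0.31, adjusted p = 0.00935). Anln, an actin binder of the contractile ring, was at 62.3 and 94.7 against 40.5 and 22.4 (1.32, adjusted p = 0.0309). Pttg1 was lower in Treg, at 413 and 495 against 659 and 607 (-0.48, adjusted p = 0.022). The Smc4 call held under all 18 alternatives. The Pttg1 call was lost in 4 of 18, namely the fit on only the 2 groups compared and the fits without the first WT Treg library or either WT Teff library. The Anln call was lost in 7 of 17, among them the replicate block, quantile normalization and the fits without the second WT Treg, the second WT Teff or either KO Treg library, and the Cenpa call in 1 of 18, without the first WT Treg library. The count of lower calls became 0 without the second WT Teff library and 2 without the second WT Treg library. In KO mice Treg exceeded Teff for 17 of the 56 genes and lay below for 0 (0 also at an unadjusted p below 0.05), where 15.7% of all genes were called higher and 11.2% lower. The median log2 difference was 0.53, against 0.00 over all genes, and both KO Treg libraries lay above both KO Teff libraries in 35 genes, where 32.9% of all genes did so. Cenpf differed most among the called genes, at 208 and 372 in KO Treg and 25.9 and 26 in KO Teff (log2 difference 3.37, adjusted p = 0.000221). Mki67 was at 1706 and 1677 against 939 and 809 (0.96, adjusted p = 0.000243), and Tpx2 at 199 and 181 against 74.3 and 61 (1.48, adjusted p = 0.00127). Without the second KO Treg library 10 genes were called. These comparisons share libraries with those between genotypes and do not add independent evidence to them.

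The genes varied together to different degrees. Across the 8 libraries, the median Pearson correlation of a gene with the mean of the other 55 was 0.791, with 36 genes over 0.7 and 4 below 0, as a description over libraries that share groups and depth. In 16 of 56 genes the replicates of at least 1 group differed by over 2-fold in value + 1, the scale of the test. Among the 35 genes with a mean value of at least 100, 16 were called in Teff, and among the 21 below 100, 5 were, with median standard errors of 0.23 and 0.36 on the log2 scale. The medians of the log2 fold change were -0.86 and -0.96. Reads carry no strand per the labels' protocols, and of the called genes Ccna2, Nusap1, Cdca8, Prc1, Ncapg and Mxd3 share exon bases with a gene on the other strand (Exosc9, Oip5, 9930104L06Rik, Rccd1, Lcorl and Prelid1), so their values are less certain. The authors' deposited table calls 23 of the 56 genes lower in KO Teff (6.27% of the 12818 genes with an adjusted p there), of which 20 are among the 21 here. Aspm, Ncapd2 and Smc4 were called in it alone and Mxd3 here alone. For Treg it calls 3 (1.87% of 13824 genes), the 2 named here and Aurkb.

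Other genes of the cell cycle were read from lists of known parts. Among 59 other mitosis genes, 5 were called lower in KO Teff and 0 higher, where 5.08% of all tested genes were called lower and 1.84% higher. The median was -0.74 and 55 lay below 0, and 28 had an unadjusted p below 0.05, all lower, where 13.7% of all genes were lower at that p. In Treg 0 were called by limma, where 0.779% of all were called lower, with 12 lower at an unadjusted p below 0.05, where 8.18% of all were. Ncapg2, a condensin II subunit, was at 70.3 and 43.1 in KO against 223 and 187 in WT (log2 fold change -1.87, SE 0.26, adjusted p = 0.00895). Cdc25b, the phosphatase that activates CDK1, was at 2164 and 2005 in KO against 2832 and 2972 in WT (log2 fold change -0.48, SE 0.07, adjusted p = 0.0114), and Kif18b, a microtubule depolymerase, at 33.2 and 36.6 in KO against 117 and 96.7 in WT (log2 fold change -1.58, SE 0.33, adjusted p = 0.0339). Among 60 genes of DNA replication and S phase, 15 were called lower in Teff, where 5.08% of all were, and the median was -0.25. Rrm2, a ribonucleotide reductase subunit, was at 152 and 157 in KO against 429 and 412 in WT (-1.44, adjusted p = 0.00149). Mcm6, of the replicative helicase, was at 701 and 772 in KO against 1183 and 1258 in WT (-0.73, adjusted p = 0.00482), and E2f2, a transcription factor of S phase genes, at 672 and 541 in KO against 1328 and 1181 in WT (-1.05, adjusted p = 0.00482). In Treg 2 of these 60 were called lower, where 0.779% of all genes were, Rrm2 (-0.68) and Orc1, of the origin recognition complex, at 41.4 and 38.5 in KO against 235 and 192 in WT (log2 fold change -2.38, SE 0.31, adjusted p = 0.016).

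The remaining lists held 0 calls between genotypes by limma, where calls were few over all genes too (5.08% lower and 1.84% higher in Teff, 0.779% and 0.674% in Treg). In Teff, 0 of 15 genes of the anaphase-promoting complex core, 0 of 11 of cohesin, 0 of 12 of the MuvB, DREAM and RB family, 0 of 19 cell cycle inhibitors and quiescence genes and 0 of 11 G1 cyclins and CDKs passed, and the medians ran from -0.13 to 0.04. In Treg the same lists had 0 calls and medians from -0.09 to 0.03. Over these 68 genes, an unadjusted p below 0.05 was reached by 5 lower and 6 higher in Teff (13.7% and 7.85% of all genes) and by 1 lower and 7 higher in Treg (8.18% and 6.52% of all genes). The authors' deposited table calls 1 lower and 1 higher in Teff and 1 lower and 3 higher in Treg. Lin9, a MuvB subunit, had the smallest p of its list in Teff, at 252 and 270.3 in KO against 361 and 347 in WT (log2 fold change -0.44, SE 0.11, adjusted p = 0.0576). Myc, a driver of T cell growth and of entry into the cycle, was at 2210.5 and 2273 in KO Teff against 1942 and 1876 in WT Teff. It was higher in KO without overlap and not called (log2 fold change 0.23, SE 0.06, adjusted p = 0.0622). Cdc25a, listed with Myc, was at 499 and 325 in KO against 740.5 and 728 in WT in Teff (log2 fold change -0.86, SE 0.24, adjusted p = 0.0796). In Treg Cdc25a was at 187 and 275 in KO against 444 and 426 in WT (-0.94, SE 0.24, adjusted p = 0.124). Its genotypes overlapped in neither sort. Of the 11 genes of this list, 8 lay below 0 and 3 above in Teff, and 7 and 4 in Treg. Btg2, an antiproliferative gene, was at 5769 and 5708 in KO against 4538 and 4403 in WT in Treg (log2 fold change 0.36, SE 0.06, adjusted p = 0.0506). The lists were not tested as sets, so these medians describe them and do not set one list apart.

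**Figure D5:**
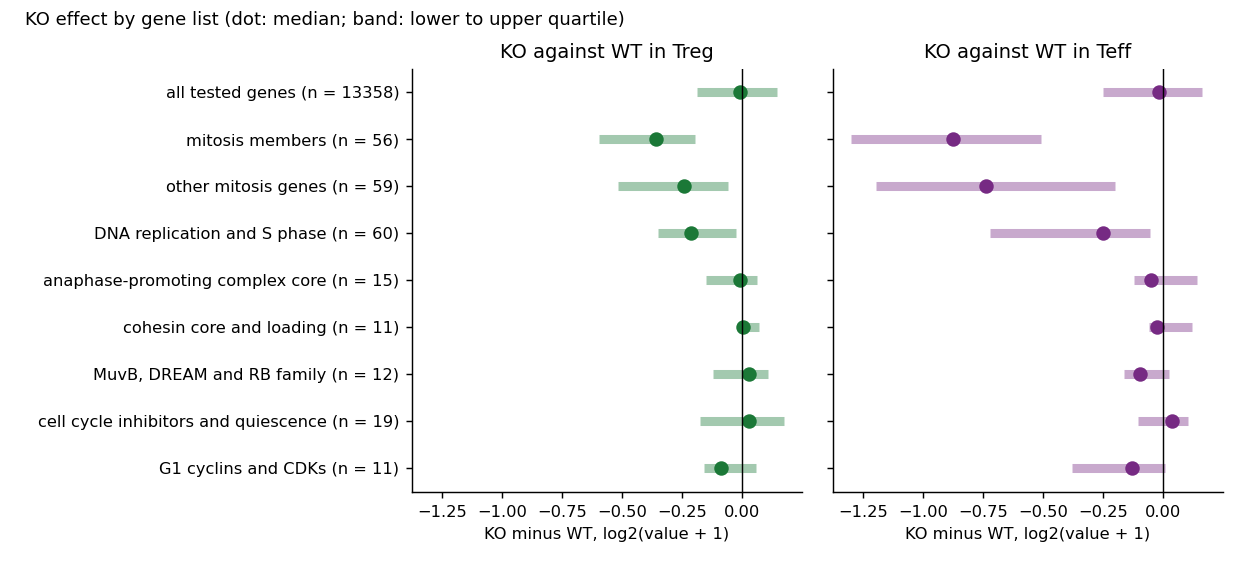
KO minus WT on the log2(value + 1) scale in Treg (left) and Teff (right) for all tested genes, the 56 mitosis genes and 7 other cell cycle lists; the dot is the median and the band spans the lower to the upper quartile. The medians of the mitosis genes are -0.36 and -0.88, those of the other mitosis genes -0.24 and -0.74, and those of the 5 lists at the foot lie between -0.13 and 0.04.

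The summed values of markers of other cells of the spleen differed between genotypes for several types. The summed values of 6 myeloid markers in the table (of 8 listed) were 9999 and 10113 in WT Treg and 6150 and 5900 in KO Treg, and 1405 and 954 in WT Teff and 649 and 559 in KO Teff. Those of 4 germinal centre B cell markers (of 5) were 1392 and 1427 in WT Teff and 943 and 801 in KO Teff. Most of these came from Bcl6, at 1012 and 1068 in WT Teff and 692 and 647 in KO Teff. The sums of 6 B cell markers (of 6) were 640.4 and 800.3 in WT Teff and 365 and 398 in KO Teff, and those of 4 plasma cell markers (of 5) were 507 and 556 against 377 and 333, with Tnfrsf17 at 0 to 1.03 throughout. Most of each WT Teff sum came from a single gene, Cd22 at 524 and 685 and Prdm1 at 329 and 428. In KO Teff Cd22 was at 279 and 153 and Prdm1 at 314 and 279.5. Pax5 was higher in KO Treg, at 178 and 162 against 5.74 and 2.87 in WT Treg. In Teff it overlapped, at 9.06 and 168 in KO against 12.6 and 17.7 in WT. For 4 dendritic cell markers (of 5) the sums were 1210.1 and 2233 in WT Teff and 831 and 469.6 in KO Teff, and 417 and 465 in WT Treg and 221 and 208 in KO Treg. Plasmacytoid dendritic cell markers (4 of 4) summed to 1483 and 1929 in WT Teff and 1396 and 1129 in KO Teff, without overlap, and overlapped in Treg. For 6 Treg markers (of 6) the sums were 9179 and 10434 in WT Teff and 7209 and 6286 in KO Teff, and 54792 and 54874 in WT Treg and 49191 and 48269 in KO Treg. The erythroid precursor sums, from 7 markers of 10, overlapped in Teff, at 265 and 132 against 185 and 144, and did not in Treg, at 1153 and 1283 against 1007 and 937. T cell markers, 4 of 6 in the table, summed to 47829 and 48523 in WT Teff and 44924 and 44786 in KO Teff. NK cell markers (4 of 4) summed to 834 and 930.2 in WT Teff and 663 and 597 in KO Teff, and neutrophil markers (7 of 7) to 146 and 33.1 against 25.8 and 13.3. In Treg the NK cell sums were 65.3 and 76.9 in WT and 49.8 in both KO libraries, and the neutrophil sums 81.1 and 80 against 31.4 and 70.3. CD8 T cell markers (2 of 2) summed to 248 to 295 in the 8 libraries. In Teff the calls were 3 lower and 1 higher of the Treg markers, 2 lower of the dendritic cell markers and 1 lower each of the B cell, plasma cell and germinal centre B cell markers, and in Treg 1 lower of the dendritic cell markers. The part of these cells in the mitosis gene results was not tested.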

How the data were processed

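The tools named in the submitters' processing notes are DESeq2 1.28.1, Salmon 0.14.1, Trim Galore 0.4.4 and R 4.0.3, and the build is mm10. Per the labels' protocols, polyadenylated RNA was read as 50-base single-end reads, with no strand marking and no molecular identifiers named. The authors deposited 1 normalized signal value per gene and library, which is not whole: 56.6% to 59.6% of values below 20 were whole multiples of the library's step (tolerance 0.02), so no count test was run. The same deposited table holds the authors' log2 fold changes and adjusted p-values, used only where named.

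The test was limma 3.58.1 with its trend and robust options, run in R 4.3.3 on log2(value + 1) of all 8 libraries, with 4 residual degrees of freedom and 5 contrasts, for 13358 genes with at least 10 in at least 2 libraries. Log2 fold changes on this scale understate changes of low genes. Precision rests on 2 libraries per group at nearly even depth. There were 18 alternatives. The genes, lists and rules were chosen with earlier results of these data known, and lists were given no test of their own. Full values went to at most 3 genes per role with the smallest p in Teff and a mean of at least 20, the least lowered gene of each role was named, and other lists gave up to 3 genes by p in Teff and 2 in Treg. Genes named beyond these, such as Aspm, Cit, Cep55 and, in Treg, Spc25, Ndc80 and Cenpe, were chosen after their values were seen. Promoter sequences are from RefSeq (GRCm38.p6), read with Python 3.11.15; 53 of 56 gene identifiers matched GENCODE M21.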

Additional observations from a re-analysis of the deposited data

Results flagged for a closer look

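In 2 mitosis genes every KO library lay above every WT library in Treg and below every WT library in Teff. For Cenpf the effect in Treg minus that in Teff was 3.08 on the log2 scale (SE 0.43), and the test of this difference was not passed (limma, adjusted p = 0.0825). Its values were 131 and 170.4 in WT Treg, 208 and 372 in KO Treg, 139 and 106 in WT Teff and 25.9 and 26 in KO Teff. For Cenpa the difference was 0.25 (adjusted p = 0.386), and its Treg groups were only just apart, at 1576 and 1521 in WT and 1579 and 1591 in KO. The same pattern was shown by 405 of 13358 tested genes (3.03%), so it is not particular to the mitosis genes.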

How the results depend on the processing

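Pseudocounts of 0.5 and 5, no filter and a stricter filter (mean of at least 50), library totals and upper-quartile scaling kept the direction of each median of the mitosis genes and kept each count within 1.5 times, but the median of Treg against Teff in WT, 0.07, became 0.12 with library totals and 0.044 with the stricter filter. No scaling moved the median of all genes by over 0.1. In Treg the 2 lower calls became 1 in a fit on only the 2 groups compared, 1 with neither trend nor robust shrinkage, 0 with the replicate block, and 0 to 1 with 1 library left out. In Teff the 21 lower calls became 5 in the fit on only the 2 groups compared (Bub1, Cenpf, Mki67, Nusap1 and Top2a), 14 with quantile normalization, 14 with neither trend nor robust shrinkage and 7 to 20 with 1 library left out. The Teff median of -0.88 became -0.73 with quantile normalization and ran from -1.04 to -0.88 with 1 library left out. For Treg against Teff in WT, the 1 lower call became 3 with quantile normalization, 2 with neither trend nor robust shrinkage and 0 to 2 with 1 library left out, and the median of 0.07 became -0.093 with quantile normalization and ran from -0.019 to 0.22. For Treg against Teff in KO, the 0 lower calls became 1 with quantile normalization and 1 with neither trend nor robust shrinkage, the median of 0.53 became 0.28 with quantile normalization, and the 17 higher calls ran from 10 to 18. The cause of these changes was not tested, except that the fits on 2 groups or without a library hold fewer libraries. Where a library was left out, the lone sample of its group was assumed to vary like the other groups.

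Deviations of libraries with the same replicate number correlated at -0.04 to 0.08 (Pearson's r), so little shared deviation was seen. Whether such libraries come from the same mouse cannot be told from these values. With the number as a replicate block, 19 genes were called lower in KO Teff, 18 of them among the 21, and 0 in Treg; the other counts were 0 higher in both sorts, 0 for the difference of effects, 2 higher and 1 lower for Treg against Teff in WT, and 18 higher and 0 lower in KO.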

Other observations

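The genes outside the cell cycle lists whose values followed the mean of the 56 mitosis genes most closely across the 8 libraries were Miga1, Lrrn3, Dhrs3, Gch1, Pclaf, Zfp120, Arl8a, Rnpep, Plekho2 and Nek7, with Pearson's r from 0.967 to 0.994 among 10141 tested genes of a mean of at least 50. This ranking is a description over libraries that share groups and depth, with the fold changes between genotypes built into it. Pclaf, which encodes a PCNA-binding factor of replicating cells, was at 347 and 310.0 in WT Teff and 112 and 127 in KO Teff, and at 301 and 333 in WT Treg and 252 and 234 in KO Treg. Miga1, a mitochondrial outer membrane protein that promotes fusion, had the highest r and was at 3613 and 3270.0 against 1738 and 1604 in Teff and 3648 and 3467 against 2571 and 2599 in Treg. Gch1, the first enzyme of tetrahydrobiopterin synthesis, was at 365 and 343 against 189.6 and 171 in Teff, and Rnpep, an aminopeptidase, at 865 and 923 against 277 and 298.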
